A study of Mus musculus with 2 samples.

Results

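Keratins are the intermediate filament proteins of epithelial cells, and their genes sit in a pair of clusters. The keratin genes were taken as the protein-coding genes of GENCODE release M21 (mm10) named Krt followed by a number, on chromosomes 11 and 15. There were 53 of them among 21938 protein-coding genes. Chromosome 11 held 27, all of type I, in a span of 1037.1 kb from Krt222 to Krt42 (chr11:99232761-100269871). Chromosome 15 held 26, the 25 of type II and the type I gene Krt18, in a span of 685 kb from Krt80 to Krt18 (chr15:101347444-102032027). Across these genes and spans, binding of the zinc finger protein CTCF was described.

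Binding had been mapped by ChIP-seq, which sequences the DNA recovered with an antibody against CTCF, in whole stomach of newborn mice (strain B6NCrl, 0 days after birth). The 1 group held 2 samples, biological replicates 1 and 2. Since both carry the same donor and tissue sample in the labels, the spread between them may be technical. No contrast of conditions was possible, and p-values are not given.

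The filament is built from pairs of an acidic type I and a basic type II keratin, whose shared central part is a long coiled rod. Simple epithelia such as the glandular stomach make Krt8, Krt18 and Krt19. Squamous epithelia such as the forestomach make Krt5 and Krt14 in their basal layer and Krt4 and Krt13 above it. Hair keratins serve the follicle and its shaft. CTCF blocks the spread of chromatin states and stops loop extrusion by cohesin, so that sites whose motifs point at each other often flank a loop.

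The sites of strong peaks with a CTCF motif match show the bases under CTCF in and beside the clusters. Those between Krt28 and Krt10 and upstream of Krt20 belong to the pair of strongest matched peaks of the chromosome 11 span. The one near Krt84 belongs to the strongest peak of the chromosome 15 span with a match whole within 50 bp of its summit. The last line is the site of the strongest peak beyond the Krt42 end of the chromosome 11 span. The 19 bases aligned to the CTCF motif are in capitals. Coordinates (mm10) cover all 39 bases of each line, and the sequence is that of the reference genome GRCm38, read on the strand of the match. That was the plus strand for Krt28 to Krt10 and near Krt84. Upstream of Krt20 and beyond Krt42 it was the minus strand, so those lines are the reverse complement of the plus strand.
Krt28 to Krt10 (chr11:99379750-99379788): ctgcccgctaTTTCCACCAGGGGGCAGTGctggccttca
Upstream of Krt20 (chr11:99463340-99463378): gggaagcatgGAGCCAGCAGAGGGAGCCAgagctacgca
Near Krt84 (chr15:101519954-101519992): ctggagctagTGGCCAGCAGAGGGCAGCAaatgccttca
Beyond Krt42 (chr11:100295484-100295522): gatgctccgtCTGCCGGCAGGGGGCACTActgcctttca

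The most frequent base at each of the 19 matrix positions read TGGCCACCAGGGGGCACTA. A summit was said to have a match when a stretch of 19 bases on either strand, lying whole within 50 bp of it, scored at least 11.94, which held for 1% of random windows. The matrix came from chromosome 1, which holds no keratin gene of the rule. The sites shown scored 23.29, 19.53, 25.27 and 22.31 in the order shown.

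The optimal list, one of the authors' thresholded sets of peaks, held 74283 peaks on chromosomes. Its peaks need not rank alike in the replicates: one near Krt19 ranked 78249 in the replicate 1 list and 177865 in the replicate 2 list. Each peak carries a signal that the authors' caller assigned, with a median of 76.6 and a range of 4.99 to 677 in that list. It serves below to describe peaks and their order. Values of the replicate lists are set side by side as a description only, since the lists are not scaled to one another. In whole tissue, binding in more cells and more binding per cell cannot be told apart. The number of reads behind a peak is unknown.

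CTCF peaks lay near most keratin genes but seldom at their starts. A peak summit lay within 10 kb of an annotated transcription start site (TSS) for 37 of 53 keratin genes (69.8%, exact Clopper-Pearson 95% interval 55.7 to 81.7). The share over all protein-coding genes was 72.3%, close to that of the keratins. Over those of chromosomes 11 and 15 it was 84.0%, above the keratin interval. Within 1 kb, 7 keratin genes (13.2%) had a summit, against 45.6% of all protein-coding genes. Counted from the start of the gene record alone, the numbers were 4 keratin genes (7.55%) and 37.7% of all protein-coding genes. Keratin-associated protein and cornified envelope genes, described below, had lower shares within 1 kb of a TSS than the keratins. These intervals cover counting error only, since neighbouring genes share peaks.

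The 37 genes had between 1 and 3 peaks each within 10 kb, and 15 of them had 1. Together these were 53 different peaks, of which 17 lay within 10 kb of 2 keratin genes. Type II genes had a peak in 20 of 25 cases (80.0%, interval 59.3 to 93.2) and type I genes in 17 of 28 (60.7%, interval 40.6 to 78.5). The intervals overlap, and no test of the difference was made. The 16 genes with no peak within 10 kb had their nearest summit 12318 to 29164 bp away. The conservative list has 7 span peaks that overlap none of the optimal list, and they put a peak within 10 kb of 3 of the 16, namely Krt20, Krt26 and Krt80.

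The genes of the simple-epithelial group had 4 of 5 members with a peak. Krt8, the type II keratin of simple epithelia, had a signal of 226 (129 in the replicate 1 list and 97.2 in the replicate 2 list), with the summit 23 bp downstream of its TSS. That summit had no match within 50 bp, but a match of score 18.02 was centred 55 bp away inside the same peak. Krt18, the type I partner of Krt8 and its neighbour on chromosome 15, had its strongest peak 9907 bp upstream of the TSS, with a signal of 286 (179 and 106 in the replicate 1 and 2 lists), and a second of 37.2 at 1639 bp upstream. Krt7, a type II keratin of ductal and glandular linings, had a signal of 198 (112 and 92.6) in an intron.

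Krt19, the smallest type I keratin and one of the markers of glandular linings, had 3 weak peaks nearby, with signals of 16.0, 27.3 and 32.5. The one of 16.0, with 11.6 and 3.65 in the replicate lists, lay 221 bp upstream of one annotated start, in an intron of the gene record. It had no overlap in the conservative list, another thresholded set of the authors. None of the 3 had a match. Krt20, a keratin of gut and urinary linings, had no optimal peak within 10 kb, and its nearest optimal summit was 24712 bp away. The conservative list, however, held a peak of signal 80.6 with its summit in coding exon 6 of Krt20 (chr11:99430939-99431017). Within 100 bp of that summit the relaxed lists had 47.3 in replicate 1 and 15.1 in replicate 2. Replicate 2 had a further summit of 39.5 within 50 bp of the site of that exon described below.

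Squamous keratins had a peak in 13 of 17 genes. The highest signals belonged to Krt10, a keratin of the suprabasal epidermis, at 445 (233 and 211 in the replicate 1 and 2 lists), and to Krt12 of the cornea, at 335 (169 and 167). Krt14, the basal type I keratin, and its neighbour Krt9 of palm and sole epidermis shared 1 peak of signal 213 (112 and 104). Krt5, the basal type II partner of Krt14, had 3 peaks. The strongest, 176 (98.4 and 79.0), lay 8645 bp downstream of its TSS and was shared with Krt6a. The nearest, 30.5 (19.7 and 11.4), lay 939 bp upstream, and the remaining one, 77.0 (53.3 and 23.2), lay in coding exon 7.

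The forestomach pair Krt4 and Krt13 had weaker peaks. Krt13 had 1 peak of signal 78.5 (35.3 and 45.8 in the replicate 1 and 2 lists), 1 of the 12 span peaks with the higher value in replicate 2. Krt4 had 3 peaks, with signals of 34.9, 59.6 and 60.0. Krt78, a mucosal type II keratin, had 1 peak of 29.6 (14.0 and 15.5) 281 bp downstream of its TSS, in coding exon 1, with a match of score 17.97. The 4 squamous genes without a peak were Krt16, Krt17 and Krt6b, which are induced by wounding and made in appendages, and Krt2 of the upper epidermis.

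Hair keratins had a peak in 15 of 23 genes, which were 11 of 15 of the hair shaft, 3 of 7 of the inner root sheath, and Krt75 of the companion layer. The strongest peak of Krt28, an inner root sheath keratin, was the one it shares with Krt10, at 445. Krt72, of the same sheath, came next at 422 (230 and 193 in the replicate 1 and 2 lists), 5805 bp downstream of an annotated start. Krt33a of the hair shaft had 380 (208 and 172). Krt87, another shaft keratin, had 28.3 (16.8 and 9.03) at 330 bp upstream of its TSS.

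Among hair genes without a peak were Krt26, Krt27 and Krt32, and the others were Krt33b, Krt34, Krt39, Krt71 and Krt73. The group of genes with no fixed role had 5 of 8 with a peak, led by Krt88 at 338 (199 and 141 in the replicate 1 and 2 lists), Krt24 at 282 (156 and 124) and Krt90 at 231 (137 and 92.8). Krt23, Krt42 and Krt80 had none in the optimal list. Shares with a peak were thus 80.0% for simple-epithelial, 76.5% for squamous, 65.2% for hair and 62.5% for other keratins, with intervals that overlap one another.

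**Figure D1:**
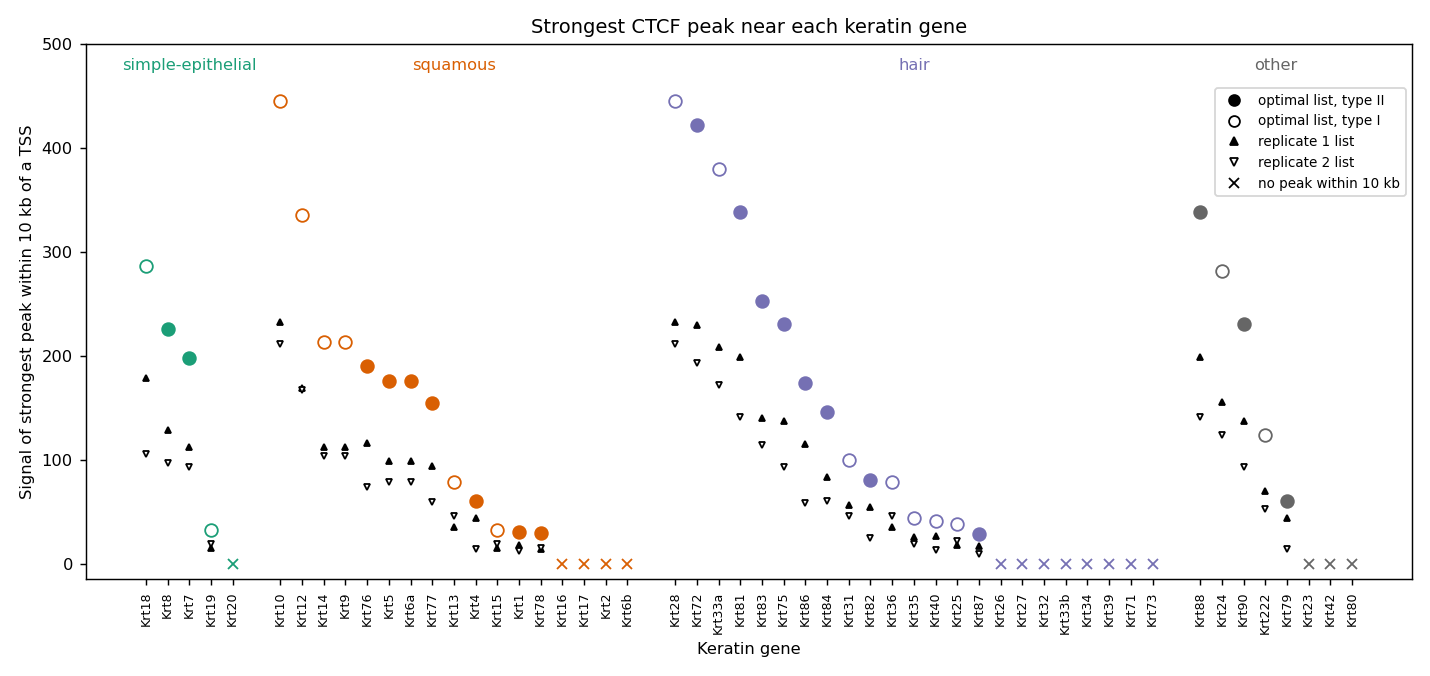
The vertical axis is the signal of the strongest CTCF peak within 10 kb of a TSS of each keratin gene, by group; large circles are the optimal list (filled for type II, open for type I), small triangles the same peak in the replicate 1 and 2 lists, and crosses the 16 genes with no peak. Every group runs from genes above 200 to genes with none, and neighbours such as Krt10 and Krt28 share a peak.

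Of the 7 genes with a summit within 1 kb, Krt8, Krt87, Krt5 and Krt78 had it at the start of the gene record. For Krt72 (494 bp, signal 46.0) and Krt79 (260 bp, signal 60.0), the start in question was that of a shorter annotated transcript inside the gene, and the summit lay in coding exon 7. For Krt19 it was likewise a start inside the gene record. Krt8 was the only one of the 7 whose nearest summit had a signal above 100.

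The 2 spans held 89 peaks, 37 on chromosome 11 and 52 on chromosome 15, with signals of 16.0 to 495 and a median of 80.3. The chromosome 15 span had 76.0 peaks per Mb, against 31.0 on the whole of chromosome 15 and 28.1 in the genome. The chromosome 11 span had 35.7 per Mb, against 45.9 on chromosome 11. It is divided by a block of 444 kb of keratin-associated protein genes, whose products form the matrix between hair keratin filaments. That block had 4 peaks, or 9.01 per Mb, while the keratin blocks before and after it had 56.7 and 54.4 per Mb.

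Genes of the matrix and of the cornified layer gave shares below the 72.3% of all protein-coding genes. A peak lay within 10 kb for 37 of 53 keratin genes, and for 19 of 57 keratin-associated protein genes (33.3%, interval 21.4 to 47.1). It did so for 15 of 45 genes of the epidermal differentiation complex on chromosome 3 (33.3%, interval 20.0 to 49.0), which code for cornified envelope proteins. Within 1 kb of a TSS, a summit lay near 0 of 57 keratin-associated protein genes and 1 of 45 genes of that complex (2.22%). Both shares were below the 13.2% of keratins. Within the chromosome 11 span, 7 of 23 keratin-associated protein genes had a peak within 10 kb. The share of CTCF motif matches that carried a peak was 6.38% in the block of these genes, against 19.7% on chromosome 11. It was 29.6% of 125 matches in the chromosome 15 span, against 18.2% on chromosome 15. The 200 kb to the left and right of that span had 43.1% and 26.1%, so the span lay between its flanks.

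**Figure D2:**
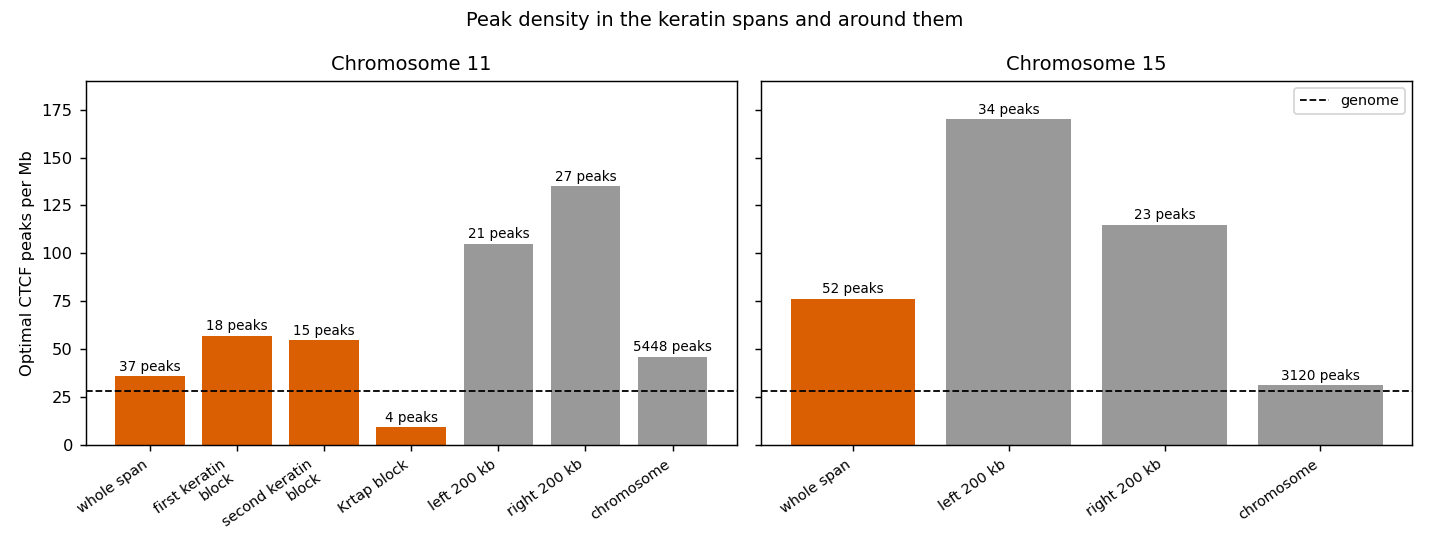
Bars give optimal CTCF peaks per Mb in the keratin spans and their blocks (orange), in the 200 kb on either side, and on the whole chromosome (grey), with the number of peaks above each bar and the genome's 28.1 per Mb as a dashed line. The block of keratin-associated protein genes (Krtap) stands at 9.01 between keratin blocks of 56.7 and 54.4, and all 4 flanks stand above the spans they border.

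The longest stretch with no peak was 190 kb on chromosome 11 (chr11:99664358-99854257), inside the block of keratin-associated protein genes. On chromosome 15 it was 65.0 kb (chr15:101632763-101697782) and held Krt6b and Krt6a. Of the intervals between neighbouring keratins, 13 of 26 on chromosome 11 and 10 of 25 on chromosome 15 had no peak. Empty intervals had a median length of 6.85 kb, and those with a peak 26.0 kb. They included Krt33a to Krt33b (7.42 kb) and Krt6b to Krt6a (9.62 kb). Neighbours of the same keratin group bounded 15 of the 23 empty intervals and 15 of the 28 with a peak.

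The fullest interval lay between Krt78 and Krt8, where the squamous genes of the type II cluster end and the simple-epithelial pair begins. It held 9 peaks in 42.4 kb, of which 5 had a signal above 300. The strongest, 495 (275 and 223 in the replicate 1 and 2 lists), was also the strongest of either span, and ranked 820 of all optimal peaks. Its summit, 19595 bp upstream of Krt78 (chr15:101973658-101974090), had no match by that definition, since its nearest, of score 16.34 and centred 43 bp away, ran past the 50 bp limit. Further peaks of this interval reached 411 (216 and 192) and 402 (209 and 192). The other intervals between squamous and simple-epithelial neighbours, all on chromosome 11, were less full. Krt12 to Krt20 had no peak, Krt15 to Krt19 had 1 of signal 27.3, and Krt19 to Krt9 had 3, up to 318.

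The other strong peaks of the chromosome 15 span were one of 424 (229 and 197 in the replicate 1 and 2 lists), 10361 bp downstream of the Krt84 TSS, and the one of 422 near Krt72, which had no match anywhere inside it. On chromosome 11 the strongest was one of 473 (269 and 205), 25206 bp upstream of Krt20, followed by the 445 between Krt28 and Krt10. Next came 425 (242 and 182) near Krtap1-5, 380 near Krt33a, and a pair of 335 near Krt12 and upstream of Krt20. Of the hair genes next to Krt28, Krt27 and Krt26 had no peak within 10 kb and Krt25 had one of 38.3. Among the 4 genes from Krt33b to Krt32 only Krt31 had a peak within 10 kb, with a signal of 100 (56.1 and 46.1).

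**Figure D3:**
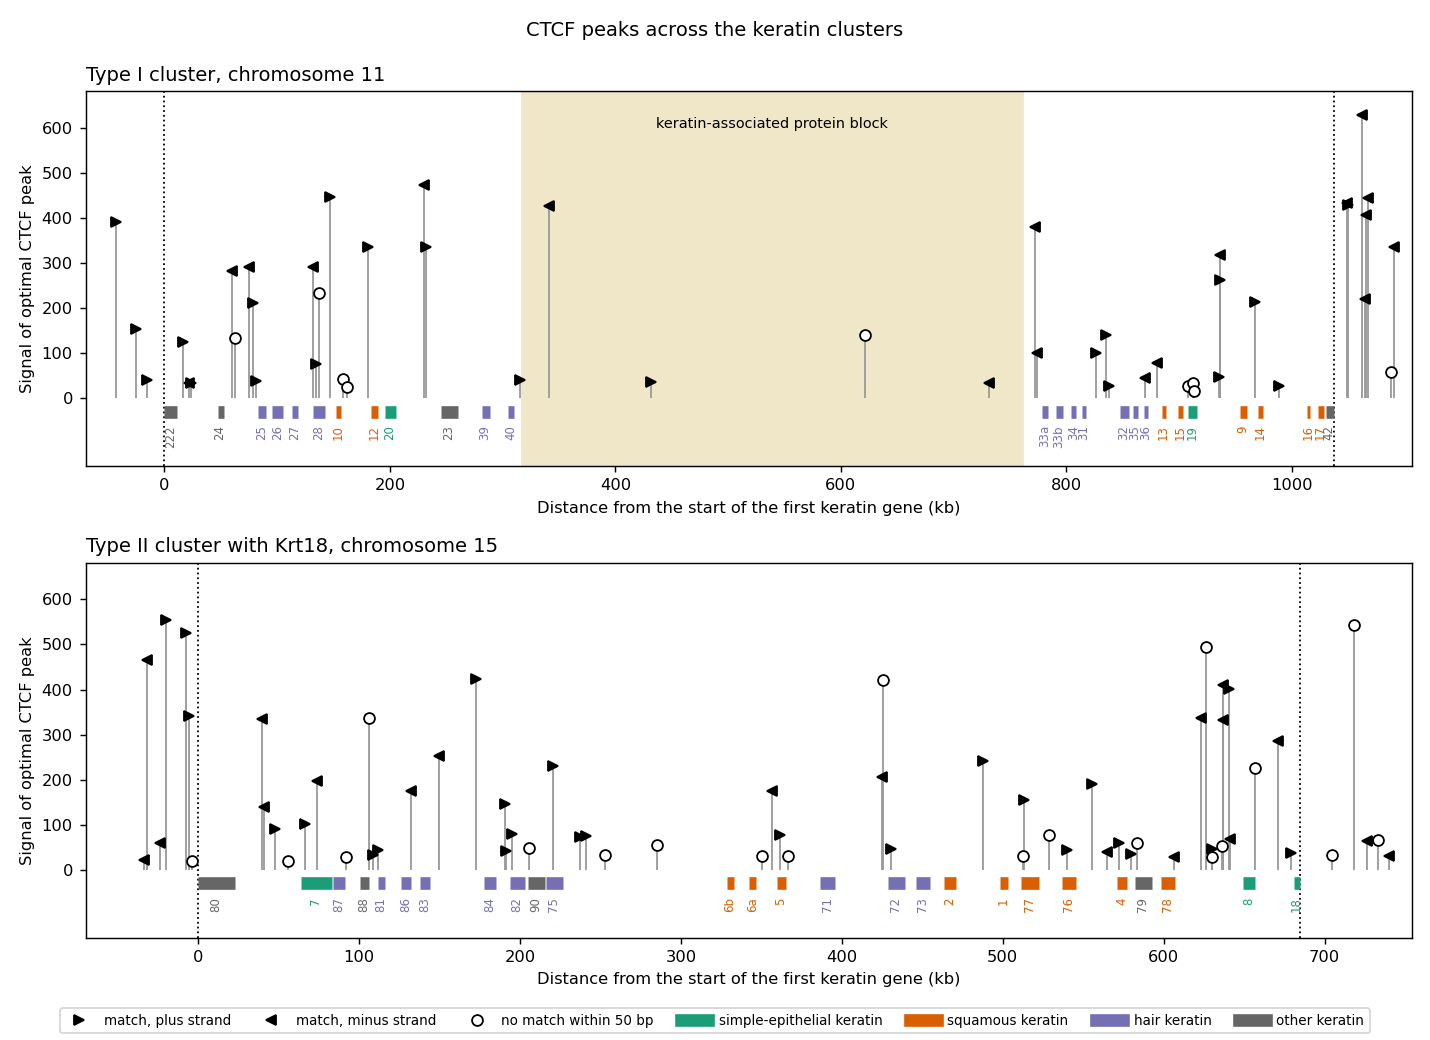
The horizontal axis is the distance in kb from the first keratin gene of each cluster and the vertical axis the signal of each optimal CTCF peak, with 60 kb beyond each end (dotted lines); arrows give the strand of the motif match, open circles have no match within 50 bp of the summit, and coloured bars are keratin genes by number and group. The shaded block of keratin-associated protein genes has 4 peaks, and the 9 peaks between Krt78 and Krt8 stand together left of Krt8.

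A CTCF match lay whole within 50 bp of the summit for 65 of 89 span peaks (73.0%, interval 62.6 to 81.9), close to the 69.3% over all peaks outside chromosome 1. The median signal was 124 for span peaks with a match and 45.9 for those without. Of the 24 peaks without one, 3 had a match inside the peak that ran past that limit. Peaks of high signal without any match inside them were those of 422 near Krt72, 338 in coding exon 5 of Krt88, and 232 in an intron of Krt28.

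Peaks inside keratin coding exons were frequent in the chromosome 15 span. Summits in coding exons numbered 15 of 52 there (28.8%, interval 17.1 to 43.1), all of them in keratin genes, against 3.94% of the other 3068 peaks of chromosome 15. Coding sequence made up 6.70% of the span and 1.36% of the rest of the chromosome. In the chromosome 11 span the number was 1 of 37 (2.70%), in coding exon 6 of Krt28, against 5.17% of the other peaks. Coding sequence made up 5.72% of that span. The 15 peaks fell in 14 genes with signals whose median was 60.0, against 90.9 over the other 37 peaks of the span.

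Coding exon 7 held 8 of the 15. The genes were Krt82 and Krt75 of hair, Krt72 of the inner root sheath, Krt5, Krt77, Krt76 and Krt4 of squamous epithelia, and Krt79. All 24 type II genes with a coding exon 7 have one of 221 bp, and it codes for the conserved end of the rod. In all 8 bound genes the highest score was centred on the same base of it, on the strand opposite to the gene, and it reached the motif threshold in 7 of them. The highest score lay at that base in 12 of the 16 unbound exons too. The signal was 231 for Krt75 (137 and 92.8 in the replicate 1 and 2 lists) and 155 for Krt77 (93.9 and 58.9). It was 80.3 for Krt82 (54.7 and 24.8) and 77.0 for Krt5. Krt79 had 60.0 (43.7 and 14.6), Krt4 had 59.6 (36.4 and 23.6), Krt72 had 46.0 (20.9 and 24.7) and Krt76 had 43.9 (27.8 and 15.6).

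Scored at that same base, 8 of 24 exons reached the threshold, and 7 of those carried a peak. Of the 16 that did not reach it, 1 carried a peak, that of Krt79 at 11.06. Scores ran from 11.06 to 15.45 in the 8 bound exons and from -3.49 to 14.25 in the 16 unbound ones. The unbound exon above the threshold was that of Krt2. In the relaxed lists, which hold weak entries, Krt2 had a signal of 8.42 in replicate 1 and 3.05 in replicate 2, against 36.4 and 23.6 for Krt4.

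In the type I genes the rod ends in coding exon 6, and 18 of 28 have an exon 6 of 221 bp as well. At its corresponding base, 1 of the 18 reached the threshold (Krt36, 12.11) and none had an optimal peak. Away from that base, 5 more of the 18 had a match, all at 1 shared position, and none of these had an optimal peak within 50 bp either. The scores were 16.14 in Krt14, Krt17 and Krt42, 16.18 in Krt16 and 15.45 in Krt20. The highest at the type II exons was 15.45, so matches of higher score in type I exons carried no optimal peak. Krt36 had relaxed signals of 13.6 (replicate 1) and 11.4 (replicate 2) at the aligned base. The conservative list had a summit in exon 6 of Krt36, with a signal of 25.3, and in that of Krt20, with a signal of 80.6. In Krt20 the aligned base scored 11.83, and the replicate 2 relaxed list had a summit of 39.5 within 50 bp of the aligned site. Krt28, whose exon 6 has 218 bp, was not among the 18. It did have an optimal peak in that exon, with a signal of 76.5 (42.2 and 33.2 in the replicate 1 and 2 lists). A match of score 13.7, opposite to the gene, lay within 50 bp of the summit.

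**Figure D4:**
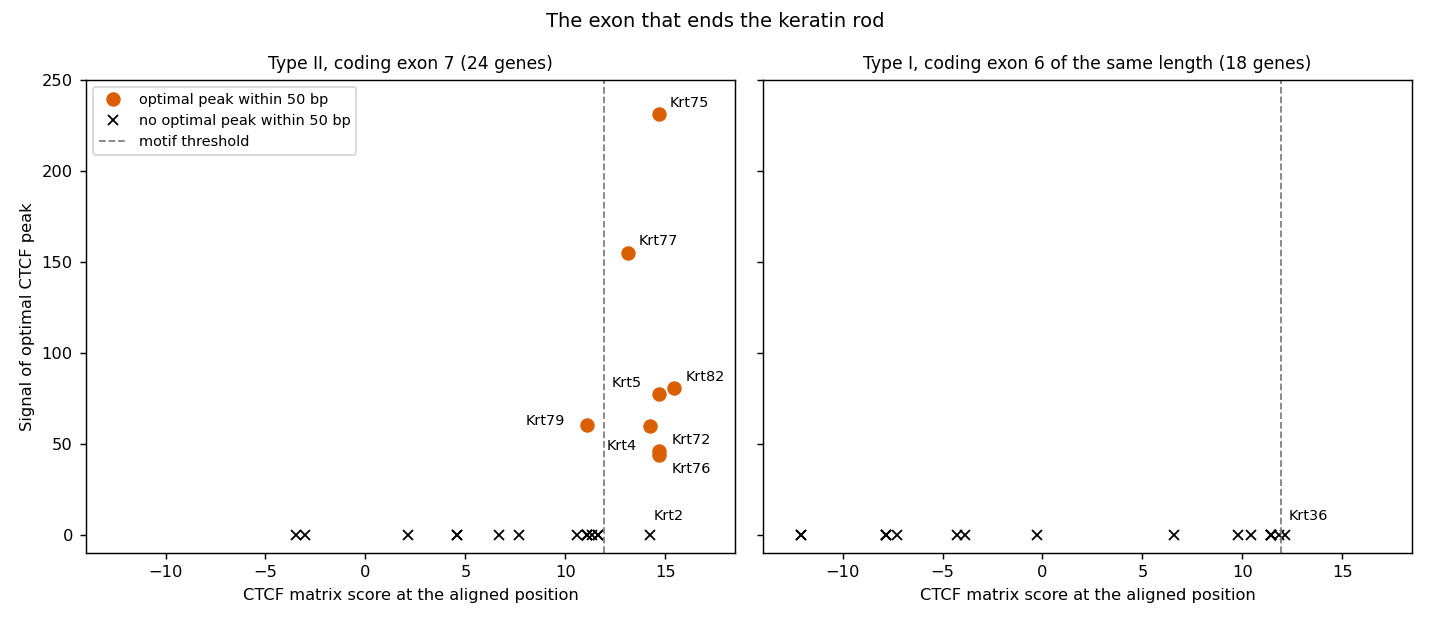
The horizontal axis is the CTCF matrix score at the aligned base of the exon that ends the rod, and the vertical axis the signal of an optimal peak within 50 bp, with crosses at 0 for genes without one; the dashed line is the motif threshold of 11.94. In type II genes 7 of the 8 exons right of the line carry a peak and Krt2 does not, and none of the 18 type I exons carries one. Not plotted are the conservative-list peak of 80.6 in exon 6 of Krt20 and the optimal peak of 76.5 in the 218 bp exon 6 of Krt28. Krt14, Krt16, Krt17 and Krt42 stand at 11.43, since their matches of 16.14 to 16.18 lie away from the aligned base and are not plotted.

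Whole exon 7 sequences were 62.4% to 82.4% identical between the 8 bound genes, with a median of 73.4% over 28 pairs. Among all 24 genes, Krt6a and Krt6b were the most alike (99.5%), followed by Krt81 and Krt86 (98.6%), and none of these 4 had a peak there. At the shared base Krt6a and Krt6b scored 11.64 and Krt81 and Krt86 scored 11.07, below the motif threshold of 11.94. How the authors placed reads that fit several copies is not given in the sources used here, and the part of such reads in these results was not tested.

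The remaining exon peaks were spread over other positions. Krt81 and Krt86, adjacent hair shaft genes, each had one in coding exon 9, with signals of 44.5 in Krt81 (replicate 1, 35.1, and replicate 2, 10.2) and 174 in Krt86 (115 and 58.3). Their sites were alike, and again ran opposite to the gene. Each line is read on the strand of its match, plus for Krt81 and minus for Krt86.
Krt81 exon 9 (chr15:101459463-101459501): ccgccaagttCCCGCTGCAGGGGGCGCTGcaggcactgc
Krt86 exon 9 (chr15:101479448-101479486): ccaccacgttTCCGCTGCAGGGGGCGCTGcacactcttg
They scored 14.96 and 15.23, and the Krt81 peak was not in the conservative list. Krt7 had a peak of 101 (49.7 and 51.0) in coding exon 2, Krt90 one of 49.7 and Krt77 a second of 30.6 in coding exon 9. Those of Krt90 and Krt77 had no match.

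Within 50 kb outside each end of both clusters lay a peak of signal 391 or higher. Except at the Krt42 end, the nearest peak outside was below the list median of 76.6. Beyond Krt42, the right end on chromosome 11, 6 peaks lay within 50 kb outside and 1 inside. The nearest, 12318 bp away, had a signal of 432 (replicate 1, 229, and replicate 2, 199). The strongest, 25652 bp away and nearest to the coding gene Eif1, had 628 (333 and 298) and ranked 24 among all optimal peaks. Of the 6 peaks, all with a match, 5 pointed toward the cluster on the minus strand.

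Beyond Krt222, at the left end, 3 peaks lay outside and 3 inside, and all 3 outside pointed toward the cluster on the plus strand. The nearest, 15332 bp away in an intron of Smarce1, had 39.8 (18.7 and 21.4 in the replicate 1 and 2 lists), and the strongest had 391 (229 and 163). Within 50 kb the motifs outside this cluster thus mostly faced inward from both sides. Within 200 kb of the left end, 8 matched peaks pointed toward the cluster and 11 away from it, while beyond the right end 14 pointed toward it and 5 away. Whether they pair in loops was not measured.

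The chromosome 15 cluster differed in its borders. Beyond Krt80, 7 peaks lay within 50 kb outside and 3 inside, with the strongest at 555 (303 and 252 in the replicate 1 and 2 lists, rank 158) 19996 bp away, and 3 motifs pointed each way. The nearest, at 4041 bp, had 20.1 (12.4 and 5.94). Beyond Krt18, 4 peaks lay outside and 8 inside. The nearest of these, near Eif4b at 20177 bp, had 34.1 (26.0 and 9.18) and no match, and the strongest had 543 (rank 213) with a match of 23.17 centred 42 bp from its summit that ran past the limit.

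Flanks of 200 kb were denser than the spans on every side, with 105 and 135 peaks per Mb left and right of the chromosome 11 span, and 170 and 115 beside the chromosome 15 span. Within the spans, motifs on the plus strand numbered 17 of 29 on chromosome 11 and 22 of 36 on chromosome 15. Neighbouring motifs pointed at each other in 8 of 28 pairs on chromosome 11, away in 8 and the same way in 12. On chromosome 15 the counts were 8, 9 and 18 of 35. The 11 matched exon peaks of that span were on the plus strand in 9 cases and on the minus strand in 2. Of the 53 keratin genes, 49 are read from the minus strand.

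Proteins that anchor keratin filaments and factors that control keratin genes were taken from a fixed list of 19. A peak lay within 10 kb for 14 of them, against 72.3% of all coding genes. The highest signals were those of Plec, the linker plectin, at 481 (251 and 231 in the replicate 1 and 2 lists), Ovol1, an epithelial repressor, at 465 (283 and 191), and Pkp3, a desmosomal plaque protein, at 406 (221 and 188). Desmosomal plaque genes had a peak in 5 of 7, linker genes in 3 of 3, epithelial factors in 5 of 6 and factors of hair keratins in 1 of 3. Evpl, Foxn1 and Lhx2 were among the 5 with none, beside Pkp2 and Trp63.

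The replicates gave similar orders of signal across the keratin peaks. These peaks came from a list thresholded on the same replicates, so the likeness is in part set by the choice of peaks. Of the 89, 89 were found in the replicate 1 list and 88 in the replicate 2 list, and 82 were among the strongest 74283 of both. The conservative list held 83. Across the 88 peaks the Spearman correlation of the signals was 0.93, as a description, since peaks of one library share its depth. Replicate 1 had the higher value in 76 peaks and replicate 2 in 12, with a median ratio of 1.33 and a range of 0.32 to 6.3. The values of the lists are not scaled to one another, and the widest ratios belonged to weak peaks.

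**Figure D5:**
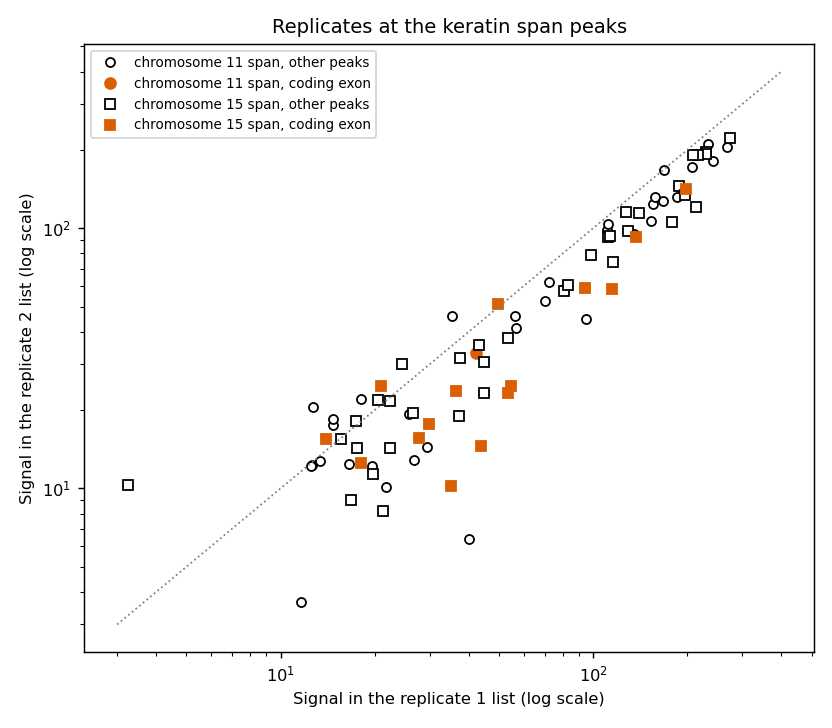
Each point is one of the 88 keratin span peaks with a value in both replicate lists, with the replicate 1 signal on the horizontal and the replicate 2 signal on the vertical axis (both log scales); orange points are peaks in coding exons and the dotted line marks equal values. Points lie along one band that is narrow above 100 and wide below 30, and coding exon peaks lie in the same band as the others.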

How the data were processed

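CTCF ChIP-seq peak lists of 2 replicates of 1 group (newborn mouse stomach, age 0 days) were used. The authors deposited 5 lists in mm10 coordinates, per the labels and the descriptions deposited with the samples. They were relaxed lists of replicate 1, of replicate 2 and of both, and the optimal and conservative lists. The last 2 were thresholded by IDR, which weighs how alike peaks rank between replicates. The deposited signal per peak is a value of the authors' caller, with no scaling between lists. Summits are the peak start plus the deposited offset in bp. Which aligner, caller and IDR threshold were used, and the depth, is not given in the sources used here.

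Keratin genes came from GENCODE M21 and sequence from GRCm38.p6. Every annotated transcript start counted as a TSS, signed with the direction of the gene. A replicate held a peak when a summit of its relaxed list lay within 100 bp, and an optimal peak was in the conservative list when they overlapped by 1 bp or more. Spans run from the first to the last base of the keratin genes of a chromosome. The CTCF matrix (19 positions) comes from 997 aligned windows among the 1000 chromosome 1 peaks of highest signal, and its threshold from 95000 random windows of other chromosomes. The motif search was run on random windows with planted draws from the same matrix, which checks the search code and not the matrix itself. Exons are those of the transcript with the longest coding sequence. Intervals are exact 95% Clopper-Pearson intervals. No test was made, since there was 1 group.

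Keratin groups follow textbook roles. The members and lists were chosen with earlier results of these data known. Named with full values were, per group, the 3 genes with the highest signal and up to 3 without a peak in alphabetical order, genes with a summit within 1 kb, the 5 strongest peaks of each span, the peaks outside each border, and the longest stretch with no peak. The exon sites and the fullest interval were chosen after their values were seen. Alternatives were other distances, lists, single replicates, TSS definitions and motif settings. The work was done in Python 3.11.15 with pandas 2.3.3, numpy 2.4.6, numba 0.67.0, scipy 1.17.1 and matplotlib 3.10.9. Some site sequences are not reported here.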

Additional observations from a re-analysis of the deposited data

Results flagged for a closer look

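Relaxed peaks that the comparisons do not use were found inside the keratin spans in both replicates. Of 241 relaxed peaks with no optimal summit within 300 bp, 55 had a summit in both replicate lists, 26 on chromosome 11 and 29 on chromosome 15. A CTCF match lay within 50 bp of the summit in 15 of these 55 (27.3%). The strongest had a signal of 80.6 in the list of both replicates (47.3 in replicate 1 and 15.1 in replicate 2, within 100 bp of its summit) and lay in the gene Krt20 (chr11:99430939-99431017), which had no optimal peak within 10 kb. It and 6 others of the spans are in the conservative list. The relaxed lists hold 299929 and 299930 peaks of replicates 1 and 2 on chromosomes, so entries of low signal are frequent in them.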

How the results depend on the processing

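The number of keratin genes with a peak depended on the distance from the TSS. Within 1 kb it was 7 of 53 in all, 1 of type I, 6 of type II, 2 simple-epithelial, 2 squamous, 2 hair and 1 other. Within 1 kb of the start of the gene record alone, a choice made after seeing the data, it was 4. Within 5 kb it was 18 in all, 7 of type I, 11 of type II, 6 squamous, 7 hair and 1 other. Within 50 kb all 53 keratin genes had a peak, among them 28 of type I, 23 hair and 8 other. With the conservative list 40 genes had a peak within 10 kb, and with 1 replicate left out 39 did in both cases. The share of all protein-coding genes with a peak was 45.6% within 1 kb, 63.2% within 5 kb and 88.0% within 50 kb. It was 71.4% with the conservative list, 71.9% without replicate 1 and 72.8% without replicate 2. With coding transcripts only, added after seeing the data, the number was 37, and the share of all coding genes 69.7%.

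With the optimal list limited to peaks at or above its median signal, the density was 20.2 peaks per Mb in the chromosome 11 span and 39.4 in the chromosome 15 span, since fewer peaks were counted, against 23.4 and 15.8 on the whole chromosomes. Without the keratin-associated protein block the chromosome 11 span had 55.6 per Mb. Leaving out a replicate gave 37.6 to 39.5 per Mb on chromosome 11 and 74.5 to 80.3 on chromosome 15. With the motif threshold met by 0.1% of random windows, 23.6% of keratin span peaks had a match, against 31.8% of peaks outside chromosome 1. No paired analysis was possible because the results come from no test between groups. The depth behind the lists is unknown, so a gene without a peak has no binding detected in these lists, which does not show that it is unbound.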
